A study of Zea mays with 6 samples.

Results

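The 5 genes described here encode putative efflux transporters of the maize endosperm. They are *ZmMATE11* (Zm00001eb048860), *ZmMATE17* (Zm00001eb086100), *ZmMATE30* (Zm00001eb006660) and *ZmMATE48* (Zm00001eb405390), of the multidrug and toxic compound extrusion (MATE) family, and *ZmMRPA14* (Zm00001eb072510), an ABC transporter of the C family (ABC-C). They were taken by name and ID from the study's list of 18 transporter genes and are 5 of the 44303 genes in the deposited tables. The study had picked the 5 from genes that changed in several sets of transcriptomes, this one included, so their direction here is not independent evidence.

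MATE proteins are carriers that move organic compounds across a membrane in exchange for protons or sodium ions. In plants they are known for exporting citrate from roots and for loading flavonoids and alkaloids into the vacuole. ABC-C transporters use ATP instead, and are known for moving glutathione conjugates into the vacuole. In Arabidopsis, members of this family also carry arsenic and cadmium bound to phytochelatins, which are peptides made from glutathione. The study's list of transporters groups all 5 genes with the transport of heavy metals and metalloids, while its text names *ZmMATE4* in the place of *ZmMATE30*. The substrates of the 5 maize proteins are not given in the sources used here.

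RNA-seq was performed on endosperm, the tissue in which the kernel stores starch and protein, at 16 days after pollination (DAP). The *zmnac128 zmnac130* samples carry knockout alleles of both duplicate NAC transcription factor genes, *ZmNAC128* and *ZmNAC130*, which were made in the inbred KN5585 and crossed with the inbred B73. The wild type (WT) samples are nontransgenic siblings segregating from the same cross, so both genotypes share a mixed KN5585 and B73 background. Each RNA sample combined more than 3 endosperms, and nothing in the labels ties samples to separate plants, so the p-values measure only the spread between these samples. Of 3 samples labelled per genotype, the third was a copy of replicate 1 in both genotypes, identical in all 44303 genes. The copies were counted once, which left 2 libraries per genotype.

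Values are in FPKM, the number of fragments on a gene scaled by the length of its exons and by the library's total in genes. The libraries held 26317317 to 30696032 reads in genes, as read from the steps of the FPKM values. The tissue label was checked against 8 storage protein genes, which lay between 1149 and 21765 FPKM in the WT libraries and between 325 and 9515 FPKM in the *zmnac128 zmnac130* libraries. These genes came from the study's set of highly expressed and changed genes, so this is a weak check. No source used here links *ZmNAC128* or *ZmNAC130* to a deposited ID, so the labels were not checked against the knocked-out genes.

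All 5 transporter genes had more transcript in *zmnac128 zmnac130* than in the WT. *ZmMATE11* and *ZmMRPA14* were near silent in the WT, a class defined as below 1 FPKM in both WT libraries. *ZmMATE17* and *ZmMATE48* were low, with a WT mean from 1 to below 10 FPKM, and *ZmMATE30* was well expressed, with a WT mean of at least 10 FPKM. In whole endosperm, more transcript per cell and more cells that hold the transcript cannot be told apart. All 5 were called higher, with a log2 fold change beyond 1 in size and a p under 0.05 after adjustment over all genes tested, by limma on log2(FPKM + 1). Of the 19082 genes tested, those with a mean of at least 1 FPKM, 6.43% were called higher.

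**Figure D1:**
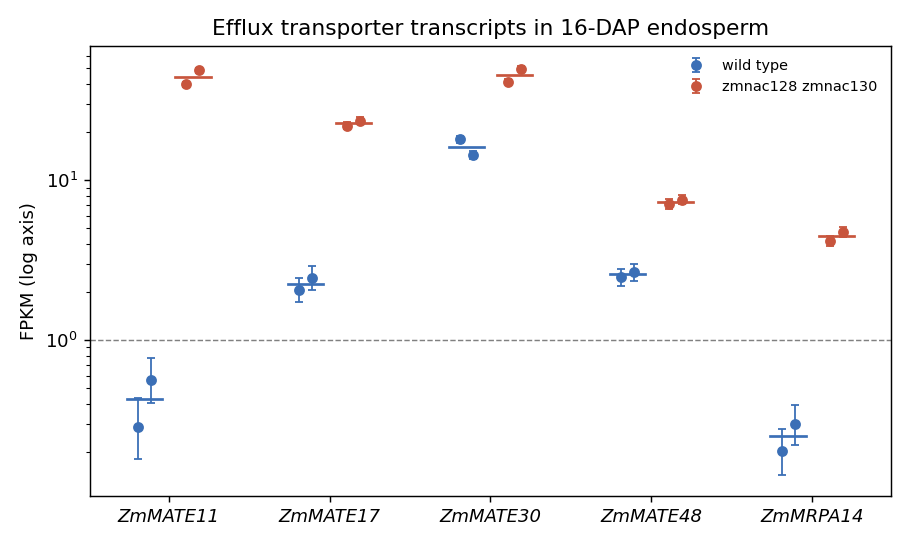
FPKM on a log axis of the 5 transporter genes in each library, with wild type in blue and *zmnac128 zmnac130* in red. Points are libraries (n = 2 per genotype), short lines are means, bars are 95% Poisson intervals of the reads behind each value, and the dashed line marks 1 FPKM. In each gene both red points lie above both blue points, and only *ZmMATE11* and *ZmMRPA14* start below the dashed line.

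*ZmMATE11* showed the steepest rise of the 5. RefSeq describes its product as protein DETOXIFICATION 40, a name used for plant MATE carriers, and places the gene on chromosome 1 from 251120801 to 251128987 of Zm-B73-REFERENCE-NAM-5.0. It had 0.287 and 0.565 FPKM in the WT libraries and 39.8 and 48.7 FPKM in the *zmnac128 zmnac130* libraries. Both WT values rested on few reads, 22 and 40, whereas the mutant values rested on 3285 and 3841 reads. The 95% Poisson intervals of the WT values ran from 0.180 to 0.435 FPKM and from 0.404 to 0.769 FPKM, which cover counting error only. The ratio of mean FPKM was 104, and the ratios of single mutant to single WT libraries ran from 70.4 to 170. On the log2(FPKM + 1) scale the fold change was 4.99 (95% interval 4.60 to 5.38, adjusted p = 2.74e-05 from limma). By log2 fold change on that scale *ZmMATE11* ranked 9 among the 19082 genes tested, a place that depended on the scale.

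In rank among all 44303 genes, those at 0 included, *ZmMATE11* moved from the middle to near the top. It lay above 47.9% and 52.6% of them in the WT libraries and above 95.1% and 95.9% in the mutant libraries. Among expressed genes its WT place was low, at ranks 23064 and 21001, where only 29295 and 29172 genes were above 0. Of 24788 genes near silent in the WT, 34 reached at least 10 FPKM in both mutant libraries, *ZmMATE11* among them. By mean FPKM in the mutant, it stood at rank 4 of those 24788 genes.

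*ZmMRPA14* was the other near-silent gene, and it rose to a much lower level. RefSeq describes it as a putative ABC transporter of the C family, on chromosome 2 from 14406830 to 14415813. It had 0.203 and 0.297 FPKM in the WT libraries, from 37 and 50 reads, and 4.17 and 4.74 FPKM in the *zmnac128 zmnac130* libraries, from 820 and 890 reads. In the WT libraries it had more reads than *ZmMATE11* at a lower FPKM in the same library, as its gene model was fitted at 6405 bases against 2691. The ratio of mean FPKM was 17.8, with single library pairs from 14.1 to 23.4. Its log2 fold change was 2.13 (95% interval 1.76 to 2.49, adjusted p = 2.62e-04 from limma). By mean FPKM in the mutant it ranked 148 among the 24788 genes near silent in the WT.

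A near-silent gene passes a filter on mean FPKM only through the genotype where it is high. The background of these 2 genes was therefore taken without the filter. Of the 14074 near-silent genes with at least 1 read in any library, 472 were called higher, or 3.35%. Both *ZmMATE11* (adjusted p = 9.09e-04 from limma without the filter) and *ZmMRPA14* (adjusted p = 0.00276) were among the 472.

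*ZmMATE17* was expressed at a low level in the WT and stood above the WT level of *ZmMATE30* in the mutant. It lies on chromosome 2 from 80185981 to 80190534, and RefSeq gives its product no descriptive name. It had 2.06 and 2.45 FPKM in the WT libraries and 21.9 and 23.5 FPKM in the *zmnac128 zmnac130* libraries. The WT values came from 131 and 144 reads. The ratio of mean FPKM was 10.1, with single library pairs from 8.92 to 11.4, and the log2 fold change was 2.87 (95% interval 2.57 to 3.16, adjusted p = 5.53e-05 from limma).

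*ZmMATE48* started close to the level of *ZmMATE17* and rose much less. It lies on chromosome 10 from 1974875 to 1978666, also without a descriptive name in RefSeq. It had 2.48 and 2.67 FPKM in the WT libraries and 7.07 and 7.56 FPKM in the *zmnac128 zmnac130* libraries. The ratio of mean FPKM was 2.84, with single library pairs from 2.65 to 3.04. The log2 fold change was 1.22 (95% interval 0.91 to 1.53, adjusted p = 9.35e-04 from limma), and the interval reached below the threshold of 1. Among tested genes that were not near silent in the WT and had a WT mean below 10 FPKM, 5.68% of 10246 were called higher.

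*ZmMATE30* was the one well-expressed gene in the WT. It is described as a putative MATE efflux family protein and lies on chromosome 1 from 19189269 to 19196098, far from *ZmMATE11* on the same chromosome. It had 18.0 and 14.4 FPKM in the WT libraries and 41.2 and 49.9 FPKM in the *zmnac128 zmnac130* libraries. Its WT libraries differed by a factor of 1.25 and its mutant libraries by 1.21, both smaller than the lowest ratio of 2.29 between a mutant and a WT library. The ratio of mean FPKM was 2.81, and the log2 fold change was 1.44 (95% interval 1.09 to 1.79, adjusted p = 8.30e-04 from limma). Among genes well expressed in the WT, 3.43% of 8251 were called higher.

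**Figure D2:**
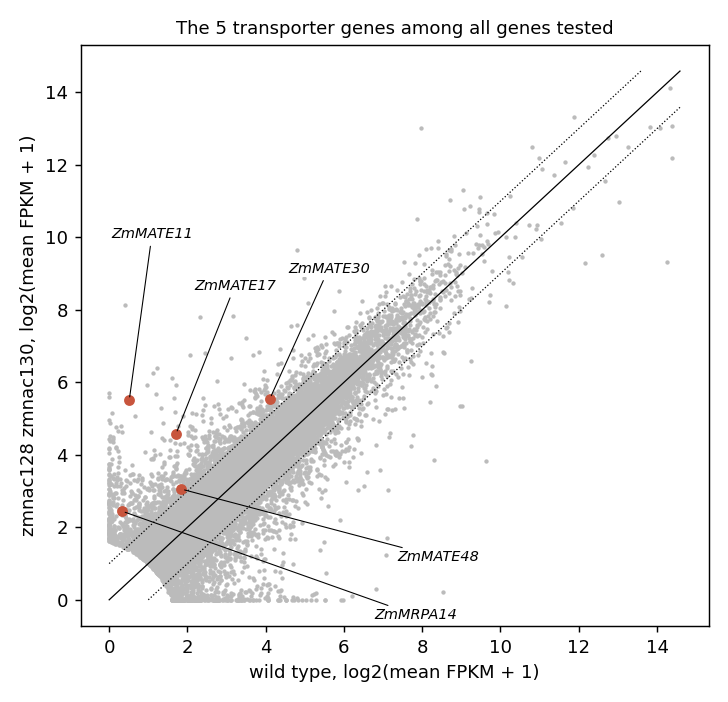
Mean expression of the 19082 genes tested in wild type (x axis) and *zmnac128 zmnac130* (y axis), both as log2(mean FPKM + 1), with the 5 transporter genes in red. The solid line marks equal expression and the dotted lines a log2 difference of 1. *ZmMATE11* lies far above the diagonal near the left edge, *ZmMATE30* lies close to the upper dotted line, and the empty corner at the lower left is where the filter on mean FPKM removed genes.

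The order of the 4 MATE genes by FPKM differed between the genotypes. In the WT, *ZmMATE30* stood first with 16.2 ± 2.56 FPKM (SD, n = 2). It was followed by *ZmMATE48* with 2.57 ± 0.130 FPKM and *ZmMATE17* with 2.26 ± 0.276 FPKM, which lay close together, although in both WT libraries *ZmMATE48* was the higher. *ZmMATE11* came last with 0.426 ± 0.196 FPKM. In *zmnac128 zmnac130*, *ZmMATE30* (45.6 ± 6.13 FPKM) and *ZmMATE11* (44.2 ± 6.31 FPKM) were level within their spread. *ZmMATE17* (22.7 ± 1.17 FPKM) and *ZmMATE48* (7.31 ± 0.347 FPKM) stood below them, each clear of its neighbours.

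Added together, the 4 MATE genes came to 22.8 and 20.1 FPKM in the WT libraries and to 110 and 130 FPKM in the *zmnac128 zmnac130* libraries. The summed level was thus 5.58 times higher in the mutant. *ZmMATE11* supplied 44.5% of the gain, *ZmMATE30* 29.9%, *ZmMATE17* 20.8% and *ZmMATE48* 4.82%. The gene that was nearly absent from WT endosperm therefore added the most transcript in FPKM terms. The make-up of the sum changed with it. *ZmMATE30* held 78.8% and 71.7% of it in the WT libraries and 37.5% and 38.5% in the mutant libraries. The share of *ZmMATE11* went from 1.26% and 2.81% to 36.2% and 37.5%, and that of *ZmMATE17* from 9.03% and 12.2% to 19.9% and 18.1%. *ZmMATE48* held 10.9% and 13.3% against 6.43% and 5.83%. The groups do not overlap in the sum or in any of the 4 shares. For each of these 5 values the exact two-sided permutation test over 6 arrangements gave p = 0.333, the smallest that 2 libraries against 2 allow.

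**Figure D3:**
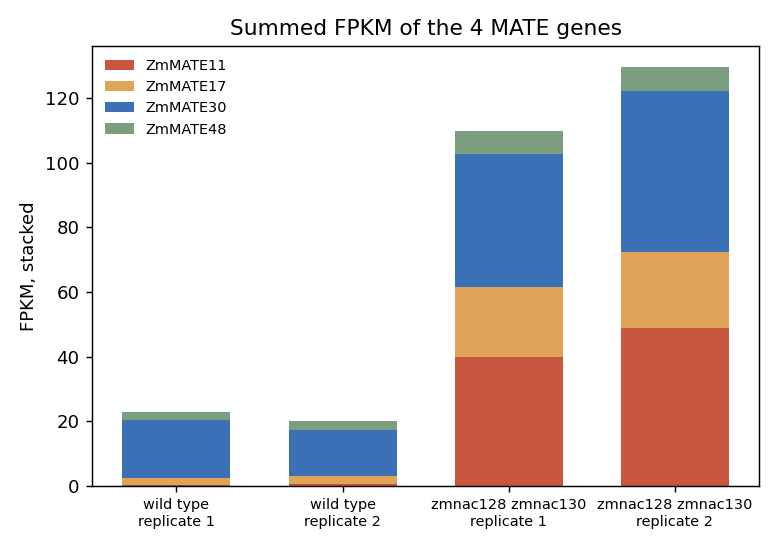
Stacked FPKM of the 4 MATE genes in each of the 4 libraries, the bars starting at 0. The total rises from 20.1 to 22.8 FPKM in wild type to 110 to 130 FPKM in *zmnac128 zmnac130*, and the *ZmMATE11* segment at the foot of the bar grows from a sliver to 36.2% and 37.5% of the height.

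Ratios taken within a library do not depend on how the library was scaled. *ZmMATE11* had 0.0159 and 0.0393 times the FPKM of *ZmMATE30* in the WT libraries and 0.965 and 0.976 times in the mutant libraries. *ZmMATE17* had 0.830 and 0.920 times the FPKM of *ZmMATE48* in the WT libraries and 3.09 and 3.11 times in the mutant libraries. *ZmMATE30* had 7.25 and 5.39 times the FPKM of *ZmMATE48* in the WT and 5.83 and 6.60 times in the mutant. This was the one pair of the 10 among the 5 genes whose within-library ratio overlapped between genotypes (exact two-sided permutation test over 2 libraries per genotype, p = 1.0; p = 0.333 for each other pair, before any adjustment). Both had risen by close to 2.8 times in mean FPKM, 2.81 and 2.84. The 10 ratios come from only 5 genes, which the study had picked as changed, so they are not independent of each other. With 2 libraries against 2, the test could give no smaller p than that of the other pairs. How often the ratios of other gene pairs overlap between the genotypes was not tested, so the count of overlapping pairs is descriptive only.

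The order of the 5 genes by size of change depended on the scale. On the log2(FPKM + 1) scale *ZmMATE17*, at 2.87, stood above *ZmMRPA14*, at 2.13. As a plain ratio *ZmMRPA14* stood above, at 17.8 against 10.1, since adding 1 FPKM weighs most on the gene with the lowest WT level. In every library *ZmMATE17* kept the higher level, with 10.2 and 8.27 times the FPKM of *ZmMRPA14* in the WT and 5.24 and 4.96 times in the mutant. With limma voom on the whole reads recovered from the FPKM steps, where no such constant is added to FPKM, the log2 fold changes were 6.76 for *ZmMATE11* (95% interval 5.85 to 7.67), 4.17 for *ZmMRPA14* (3.53 to 4.82), 3.34 for *ZmMATE17* (2.94 to 3.73), 1.51 for *ZmMATE48* (1.19 to 1.83) and 1.49 for *ZmMATE30* (1.14 to 1.85). All 5 were again called higher, in a fit that called 8.51% of genes higher. By log2 fold change *ZmMATE11* ranked 78 among the 19082 genes in this fit, against 9 on the log2(FPKM + 1) scale. The adjusted p from voom was highest for *ZmMATE30*, at 5.02e-04. *ZmMATE11* was first among the 5 on every scale, and the intervals of *ZmMATE30* and *ZmMATE48* overlapped on both the log2(FPKM + 1) and voom scales.

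**Figure D4:**
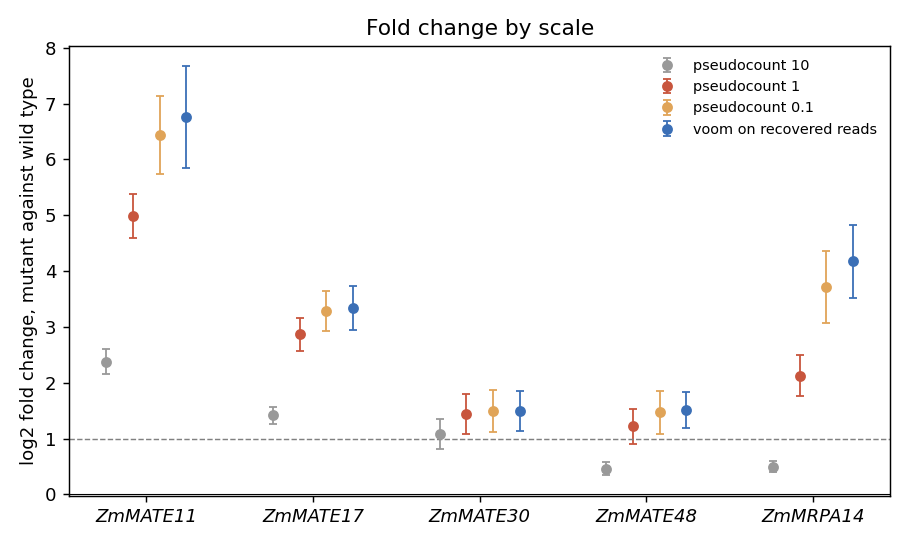
Log2 fold change of the 5 genes, *zmnac128 zmnac130* against wild type, on 4 scales, which are log2(FPKM + 10), log2(FPKM + 1), log2(FPKM + 0.1) and voom on recovered reads. Points are estimates and bars 95% intervals from limma, and the dashed line marks the threshold of 1. The estimate climbs with a smaller pseudocount, most of all in the near-silent *ZmMATE11* and *ZmMRPA14*, and *ZmMATE48* (0.46) and *ZmMRPA14* (0.50) fall below the line at a pseudocount of 10.

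The other transporter genes of the study's list did not all share this direction. Of the 13, 4 were called higher and 9 lower, with a median log2 fold change of -1.26 against 0.0068 over all genes tested. Over all genes tested, 6.43% were called higher and 7.18% lower. However, the study had chosen all of the 13 except *ZmPHO1;2b* (Zm00001eb258520) as changed genes, so their count is not set against that background. *ZmNRAMP5* (Zm00001eb304610), a metal transporter that the study groups with the 5 genes, was also near silent in the WT. It had 0.624 and 0.797 FPKM in the WT libraries and 8.39 and 11.3 FPKM in the *zmnac128 zmnac130* libraries. A further 3 genes are described as transporters in the study's set of 243 highly and differentially expressed genes, and of these a vacuolar iron transporter and a carbohydrate transporter were called higher and a purine permease (PUP1) lower. The study lists 130 upregulated genes in that set, of which 10 were near silent in the WT, *ZmMATE11* and *ZmMRPA14* among them. By log2 fold change the 5 genes ranked 3 (*ZmMATE11*), 11 (*ZmMATE17*), 25 (*ZmMRPA14*), 64 (*ZmMATE30*) and 91 (*ZmMATE48*) among the 129 of the 130 that were tested. No further MATE or ABC-C gene could be matched by name to the deposited IDs, so how the rest of both families behaved was not tested.

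Sulfur assimilation supplies the cysteine from which glutathione and phytochelatins are built. Of 7 genes of sulfur and thiol metabolism in the study's set, 6 were called higher and 1 lower, with a median log2 fold change of 1.06. These genes too were chosen by the study partly on these samples, in a set where 123 of the 129 listed upregulated genes tested were called higher, so 7 calls of 7 say nothing particular about the list. Over all genes tested the shares were 6.43% higher and 7.18% lower. ATP-sulfurylase 3 (Zm00001eb056910), which activates sulfate, had 28.0 and 31.4 FPKM in the WT libraries and 60.0 and 61.7 FPKM in the *zmnac128 zmnac130* libraries. Sulfite reductase (Zm00001eb292100), which makes sulfide, had 62.0 and 63.8 FPKM against 132 and 132 FPKM. An enzyme of the siroheme cofactor of sulfite reductase, described as urophorphyrin methylase 1 (Zm00001eb358930), had 5.51 and 5.33 FPKM against 14.3 and 14.6 FPKM. A methionine adenosyltransferase (Zm00001eb417370) makes the methyl donor S-adenosylmethionine. It showed the largest rise of the 7 on the log2(FPKM + 1) scale, with a log2 fold change of 1.58. Adenosine kinase 2 (Zm00001eb185220), which recycles a product of methyl transfer, had a log2 fold change of 1.06. RESPONSE TO LOW SULFUR 3 (Zm00001eb043810), of a family induced by sulfur shortage in Arabidopsis, had one of 1.41. As a plain ratio of means it rose more than the adenosyltransferase, from 1.83 to 6.56 FPKM against 39.6 to 121 FPKM. A lactoylglutathione lyase (Zm00001eb345750), which uses glutathione to clear methylglyoxal, went the other way, from 138 and 142 FPKM to 20.3 and 22.3 FPKM (log2 fold change -2.66, adjusted p = 2.98e-05 from limma). The rises were moderate, and without either WT library or without the second mutant library only 4 of the 7 were called higher.

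Genes with the most similar pattern were sought among 135 genes of the study's set that carry a descriptive name. Likeness was the Euclidean distance in log2(FPKM + 1) over the 4 libraries, so it reflects level as well as change. *ZmMATE48* was nearest to a CDT1-like protein, a factor of DNA replication licensing, at a distance of 0.152, and no gene of the whole table was nearer. The second of the named genes was a beta-D-xylosidase at 0.352, with 21 genes of the whole table nearer. *ZmMATE30* lay nearest to a putative nucleolar protein (0.347) and the 60S ribosomal protein L37a (0.389), with 3 and 7 genes of the whole table nearer. *ZmMATE17* was nearest to a dihydroceramide fatty acyl hydroxylase, FAH1 (0.722), with 12 genes nearer, and then to the probable protein ABIL4 (1.31), with 59 genes nearer. For *ZmMATE11* and *ZmMRPA14* the nearest gene of the whole table, at 0.737 and 0.140, was not among the named genes. The nearest named genes were FAH1 (2.45) and the benzoxazinoid enzyme BX6 (2.57) for *ZmMATE11*, and the carbohydrate transporter named above (1.25) and a DnaJ homolog, GRV2 (1.38), for *ZmMRPA14*, with 48 to 459 genes of the table nearer.

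Other transcripts of known place in the kernel moved as well. These too were taken from the study's set of changed genes, so their shared fall says nothing particular about their cell types. *betl3*, a marker of the basal endosperm transfer layer through which solutes enter the kernel, had 135 and 162 FPKM in the WT libraries and 44.4 and 29.5 FPKM in the *zmnac128 zmnac130* libraries. *ZmSWEET4c*, a hexose transporter of the same layer, had 154 and 180.2 FPKM against 77.6 and 61.1 FPKM. A caleosin, an oil body protein that is abundant in embryos, had 56.1 and 64.5 FPKM against 17.0 and 15.6 FPKM. The 8 storage protein genes together went from 66060 and 64786 FPKM to 22634 and 17129 FPKM. Of 24 symbols of transfer layer, embryo, aleurone and green tissue markers searched for in addition, 0 could be matched to the deposited IDs, so the part of other cell types in the transporter values was not tested. With median-of-ratios scaling, which sets aside such abundant transcripts, the log2 fold changes of the 5 genes were between 1.23 and 4.99 and all 5 were called.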

How the data were processed

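RNA-seq libraries of 16-DAP endosperm of 2 genotypes were analysed. The authors aligned 150 bp paired-end reads with HISAT2 to B73 RefGen_v5 and deposited FPKM values, each library scaled to its own total. The HISAT2 version and the counting program were not given in the sources used here. Reads shared by near-identical copies could be split between genes.

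Sample groups were taken from the labels. Reads per gene were recovered from the FPKM steps as the smallest whole numbers, with 1 length per gene. All 33589 genes above 0 gave whole reads within 0.002 reads. Totals were 26317317 to 30696032 reads per library, and intervals from reads cover counting error only.

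After removal of genes with a mean below 1 FPKM, the genotypes were compared on log2(FPKM + 1) with limma 3.58.1 (lmFit, eBayes with trend, two-sided) in R 4.3.3, and p-values were adjusted by Benjamini-Hochberg across the remaining 19082 genes. The fit had 2 residual and 4.04 prior degrees of freedom. The call thresholds are those of the study's methods, and the procedure was tested on simulated data. Python 3.11.15 with pandas and scipy served for other steps. Alternatives were other pseudocounts, filters and scalings, a replicate block, all 6 columns, voom, and each library left out.

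Gene names came from the study's tables and RefSeq, which matched 5 of the 5 genes. Named genes are the 5, *ZmNRAMP5*, the sulfur list and the 2 named genes nearest to each of the 5. Sequences and promoter motifs were not analysed here. The members and lists were chosen with earlier results of these data known.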

Additional observations from a re-analysis of the deposited data

How the results depend on the processing

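Of 141 values recomputed under the alternatives, 132 kept their direction and call, or stayed within the spread or within 1.5 times for counts. Some of the 132 could not have moved. Shares of the MATE sum are taken within a library, so scaling leaves them as they were. The filter, the eBayes trend and the replicate block leave the log2 fold change of a tested gene unchanged, so only its p-value could move. The setting with all deposited columns counts the copied libraries as further replicates. With a pseudocount of 10, 612 genes were called in place of 2598, and *ZmMATE48* (log2 fold change 0.46, adjusted p = 0.00129 from limma) and *ZmMRPA14* (0.50, adjusted p = 5.41e-04 from limma) missed the fold change threshold. Their p-values stayed below 0.05, and a larger pseudocount shrinks the change of weakly expressed genes by construction. Calls fell to 8 of the 13 other transporters of the study's list, 0 of the 3 further genes described as transporters and 2 of the 7 sulfur genes. With a filter at a mean of 10 FPKM, which left 8396 genes, 936 were called, *ZmMATE48* and *ZmMRPA14* were not tested, and of the further transporters and the sulfur genes only 1 of the 3 and 4 of the 7 were tested, each of which was called.

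With any 1 library left out, all 5 transporter genes stayed called. The log2 fold change ran from 4.84 to 5.13 for *ZmMATE11*, from 2.78 to 2.95 for *ZmMATE17*, from 1.29 to 1.59 for *ZmMATE30*, from 1.18 to 1.26 for *ZmMATE48* and from 2.05 to 2.20 for *ZmMRPA14*, and the highest adjusted p from limma was 0.0321. Where 1 library of a genotype remained, it was assumed to vary like the others. Calls over all genes ran from 2153 to 2732, over the 13 transporters from 11 to 13 and over the sulfur genes from 5 to 7. With the replicate number as a block, 2632 genes were called, the 5 among them. The differences between replicates 1 and 2 correlated at -0.078 between the genotypes, so no shared replicate effect was visible. Whether the replicate numbers pair the libraries by plant or preparation was not tested. The depth limits the WT values of *ZmMATE11* and *ZmMRPA14*, which rest on 22 to 50 reads, and with 2 libraries per genotype no permutation test can pass 0.05.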
